A study of Mus musculus with 9 samples.

Results

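A set of 9 genes of the defence against ferroptosis was followed in mouse kidney cortex: Gpx4, Aifm2, Dhodh, Gch1, Slc7a11, Slc3a2, Gclc, Gclm and Gss. They were chosen by name for their known roles, and all 9 were found among the 34669 genes of the expression table. Of these 9, 8 passed the filter on low values and were tested with 15453 genes in all. The remaining gene, Slc7a11, lay below it and is described from its counted fragments.

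Ferroptosis is a cell death driven by iron-dependent oxidation of membrane phospholipids, and injured kidney tubules are known to be prone to it. The enzyme GPX4 reduces oxidised phospholipids with electrons from glutathione. Glutathione is built from cysteine, which enters cells as cystine through a transporter made of SLC7A11 and its partner SLC3A2. The enzyme pair GCLC and GCLM joins cysteine to glutamate, and GSS adds glycine. Other routes do not need glutathione: AIFM2 (also called FSP1) and DHODH reduce coenzyme Q in different membranes, and GCH1 makes tetrahydrobiopterin, itself a lipid antioxidant.

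Messenger RNA of renal cortex was sequenced from wild-type male C57BL/6 mice bought at 10 weeks of age, in 3 groups of 3 libraries. The TJ0113 group had bilateral ischemia-reperfusion injury (bIRI), in which both renal pedicles were clamped for 30 min, and received the compound TJ0113 orally each day, beginning 3 days ahead of the operation and ending with sampling on day 14. The vehicle group had the same injury and the same schedule of vehicle gavage. The sham group had the operation without clamping. Neither a day of sampling nor any gavage is on record for sham mice, so clamping, gavage and day cannot be told apart in a difference from sham. Dose and vehicle composition are not stated in the sources used here, and the sample labels spell the compound TJ013. Nothing in the labels says whether a library came from 1 mouse, so p-values measure only the spread between these samples. The comparisons asked what the injury left behind after the recovery period, and whether TJ0113 changed it. Both injured groups share the sham libraries, and both TJ0113 comparisons share the TJ0113 libraries.

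Libraries held 31200000 to 42700000 fragments, rounded to 3 significant digits and recovered from the steps between low values. All 24 markers of the proximal tubule, the main cell type of the cortex, were above 0 in every library. Libraries of a group differed much more in the injured groups than in sham: their squared differences, in units of counting noise, had medians of 8.49 to 16.3 in TJ0113, 17.2 to 71.2 in vehicle and 2.4 to 2.91 in sham, against 0.455 for counting noise alone. On the first principal component, with 75.5% of the variance, the libraries TJ0113 2 (4.5) and vehicle 2 (-8.0) were the injured libraries nearest to sham (-61.7 to -52.5). The median gene was higher by 0.262 in TJ0113 and by 0.297 in vehicle than in sham, on the scale of log2(FPKM + 1), and lower in TJ0113 than in vehicle (-0.0326). FPKM are fragments scaled by gene length and by library depth. Log2 differences below are therefore given relative to the median gene unless stated otherwise, whereas the tests were made on the values as deposited. A gene is called where limma's p, adjusted by the Benjamini-Hochberg method over 15453 genes, is under 0.05. On the log2(FPKM + 1) scale the change of low genes is understated.

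Of the 8 tested defence genes, 1 was called between vehicle and sham, Gch1, which rose in vehicle. In that comparison 36.7% of all tested genes were called, 31.3% higher and 5.42% lower. Gch1 was also the 1 gene of the 8 called between TJ0113 and sham, where 34.8% of all tested genes were called, 28.9% higher and 5.92% lower. None of the 8 was called between TJ0113 and vehicle, where 0.0% of all tested genes were called. In that last comparison limma gave 0 calls among 15453 genes, with 927 genes (6.0%) at an unadjusted p under 0.05, and none of the 8 among those. The share of defence genes called against sham was below that of all genes in both comparisons. Gch1 passed the filter, a mean of at least 0.5 FPKM over the 9 libraries, only through the injured groups. It averaged 0.774 FPKM in TJ0113, 1.06 in vehicle and 0.201 in sham. Without a filter its limma adjusted p was 0.0467 in vehicle and 0.0929 in TJ0113 against sham.

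**Figure D1:**
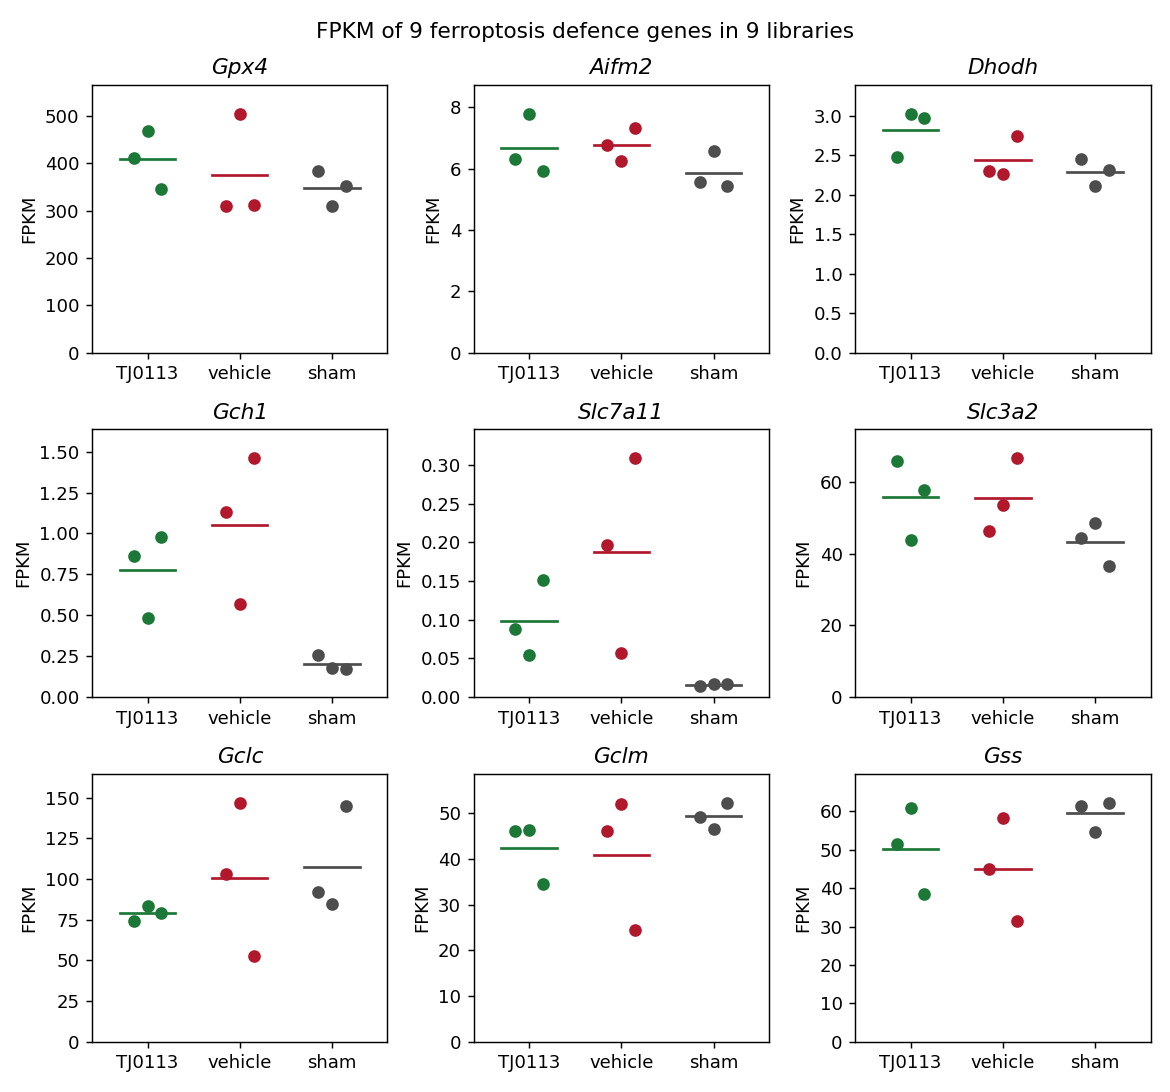
FPKM of each of the 9 genes in the 9 libraries, by group from left to right TJ0113, vehicle and sham; points are libraries and lines are group means, and every axis starts at 0. Gch1 and Slc7a11 lie higher in all 6 injured libraries than in the sham libraries, and the other 7 genes overlap between vehicle and sham.

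Gpx4 (ENSMUSG00000075706, on chromosome 10) encodes the selenium-containing peroxidase at the centre of this defence. It was the most abundant of the 9 genes per length in every group, and at most 0.265% of all genes had a higher mean. Its levels were 411, 469 and 346 FPKM in TJ0113 libraries 1 to 3, 310, 505 and 312 FPKM in vehicle and 383, 309 and 353 FPKM in sham. The 3 groups overlapped, and vehicle library 2 stood far above the other vehicle libraries. The log2 difference was -0.22 between vehicle and sham (95% interval -0.77 to 0.32), -0.04 between TJ0113 and sham (-0.58 to 0.51) and 0.18 between TJ0113 and vehicle (-0.36 to 0.73). Limma's adjusted p was 0.819, 0.477 and 0.948 in that order, so no difference was called, and the intervals leave room for changes of either sign.

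The Gpx4 level depends on how reads of a copy were assigned. Gpx4-ps2, a transcribed processed pseudogene, shares 762 bases with Gpx4 at 99.7% identity and was listed at 114, 135 and 80.2 FPKM in TJ0113, 100, 141 and 88.7 FPKM in vehicle and 123, 98.5 and 120 FPKM in sham. Its ratio to Gpx4 was 0.232 to 0.289 in TJ0113, 0.280 to 0.323 in vehicle and 0.319 to 0.340 in sham. The ratios of TJ0113 and of sham did not overlap. With its fragments added, an alternative chosen after seeing the data, Gpx4 averaged 459 ± 74.6 FPKM in TJ0113, 426 ± 125 in vehicle and 401 ± 43.4 in sham (SD, n = 3 each). Log2 differences were then -0.24 between vehicle and sham, -0.07 between TJ0113 and sham and 0.17 between TJ0113 and vehicle, with no call by limma.

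The routes that do not need glutathione held the 1 called gene. Aifm2 and Dhodh, which reduce coenzyme Q, were low and narrow in range, whereas Gch1, the first and rate-limiting enzyme of tetrahydrobiopterin synthesis, was several times higher in injured cortex.

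Gch1 (ENSMUSG00000037580, chromosome 14) had 0.863, 0.483 and 0.976 FPKM in TJ0113, 1.13, 0.569 and 1.46 FPKM in vehicle and 0.255, 0.176 and 0.170 FPKM in sham. These correspond to 231, 121 and 190 fragments in TJ0113, 255, 122 and 316 in vehicle and 58.5, 38.0 and 37.0 in sham. Every injured library lay above every sham library, and in each injured group library 2 was the lowest. The mean of the vehicle group was 5.26-fold that of sham, a log2 difference of 0.46 ± 0.18 (SE, 95% interval 0.05 to 0.86), with an adjusted p of 0.0167 by limma. The TJ0113 mean was 3.86-fold that of sham, with a log2 difference of 0.29 ± 0.18 (-0.11 to 0.70), an interval that includes 0. Limma's adjusted p of 0.0408 belongs to the difference as deposited, 0.55 (0.15 to 0.96). For vehicle against sham the difference as deposited was 0.75 (0.35 to 1.16). TJ0113 reached 0.733 of the vehicle mean, but the groups overlapped and the log2 difference of -0.17 (-0.57 to 0.24) had a limma adjusted p of 0.874. Log2 differences of Gch1 depend on the amount added before taking logs. With 0.1 in place of 1, those relative to the median gene were 1.48 in vehicle and 1.15 in TJ0113 against sham, with limma adjusted p of 0.00863 and 0.0161. Without sham library 2 or 3 the call between vehicle and sham was lost, with limma adjusted p of 0.0618 and 0.0624. The call between TJ0113 and sham was lost in 9 settings, with adjusted p between 0.0578 and 0.187 by limma, while the difference stayed positive in each of them.

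The 250 bases before the Gch1 start at chr14:47189414-47189663 (minus strand, RefSeq sequence on GRCm38.p6) are shown because Gch1 is the called gene, with its GC boxes (GGGCGG on either strand) in capitals. They hold 2 GC boxes, at -118 to -113 and -105 to -100 from the start site, which do not overlap each other, and neither of the other motifs searched. Of all 32851 windows of this length, 32.7% held a GC box. A match is a description of the letters and not a binding site.

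Gch1 promoter: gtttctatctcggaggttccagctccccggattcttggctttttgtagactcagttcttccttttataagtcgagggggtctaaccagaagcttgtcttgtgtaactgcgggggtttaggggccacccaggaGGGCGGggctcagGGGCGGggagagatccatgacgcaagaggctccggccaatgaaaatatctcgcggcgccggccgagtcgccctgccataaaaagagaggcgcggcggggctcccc

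Macrophages are known to raise Gch1 when activated, and their markers moved with it. The summed FPKM of 12 macrophage markers was 614, 515 and 1050 in TJ0113, 963, 311 and 1820 in vehicle and 61.6, 46.2 and 42.4 in sham, with none of the 12 at 0 in any library. Of the 11 tested, 10 were called higher in each injured group against sham by limma. The summed FPKM of 12 injured tubule markers was 10900, 4190 and 14500 in TJ0113, 10700, 5160 and 14700 in vehicle and 520, 493 and 526 in sham. Of 10 markers of fibroblasts and myofibroblasts, 10 were called higher in TJ0113 and 9 in vehicle, with sums of 179, 184 and 292 FPKM in TJ0113, 280, 91.1 and 396 FPKM in vehicle and 33.3, 31.5 and 24.1 FPKM in sham. Of 3 tested neutrophil markers, out of 6, 2 were called higher in each, with sums over the 6 of 11.3, 5.48 and 44.3 FPKM in TJ0113, 17.2, 4.64 and 34.2 FPKM in vehicle and 1.78, 0.759 and 1.75 FPKM in sham. Library 2 was the lowest of each injured group in Gch1 and in these sums, except that of fibroblasts in TJ0113, where library 1 was the lowest. On the first principal component library 2 was also the lowest of each injured group, so this order is not particular to these genes. The part of any of these cell types in the Gch1 difference was not tested, and in bulk tissue more cells of a type and more RNA per cell cannot be told apart.

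Aifm2 (ENSMUSG00000020085, chromosome 10), which recycles coenzyme Q at the plasma membrane, had 6.31, 7.80 and 5.94 FPKM in TJ0113, 6.77, 6.27 and 7.32 FPKM in vehicle and 5.56, 6.57 and 5.45 FPKM in sham. All 3 groups overlapped. Its log2 differences were -0.11 between vehicle and sham, -0.10 between TJ0113 and sham and 0.01 between TJ0113 and vehicle (-0.29 to 0.31), none called by limma. Of its exon bases, 5.65% overlap H2afy2 on the opposite strand, which averaged 7.86 ± 1.39 FPKM in TJ0113, 7.81 ± 2.14 in vehicle and 4.74 ± 0.052 in sham (SD, n = 3 each). Whether reads were counted by strand is not stated in the sources used here.

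Dhodh (ENSMUSG00000031730, chromosome 8) sits in the mitochondrial inner membrane, makes the pyrimidine orotate and passes electrons to coenzyme Q. It had 2.48, 3.03 and 2.97 FPKM in TJ0113, 2.30, 2.27 and 2.75 FPKM in vehicle and 2.45, 2.11 and 2.31 FPKM in sham. The TJ0113 libraries lay above all sham libraries by a narrow margin, and TJ0113 overlapped vehicle. The mean in TJ0113 was 1.16-fold that of vehicle and 1.24-fold that of sham. The log2 differences were 0.19 between TJ0113 and vehicle (-0.09 to 0.46), -0.05 between TJ0113 and sham and -0.23 between vehicle and sham (-0.51 to 0.04), with limma adjusted p of 0.849, 0.179 and 0.692. Under quantile normalization Dhodh was called lower in vehicle than in sham (-0.30, limma adjusted p 0.0467).

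Of the transporter pair for cystine, the mRNA of the transporting subunit had a large relative difference at a very low level. Slc7a11 (ENSMUSG00000027737, chromosome 3), the transporting subunit, had 0.0882, 0.0549 and 0.152 FPKM in TJ0113, 0.197, 0.0576 and 0.309 FPKM in vehicle and 0.0147, 0.0167 and 0.0165 FPKM in sham. That is 52.5, 30.5 and 66.0 fragments in TJ0113, 99.0, 27.5 and 149 in vehicle and 7.5, 8.0 and 8.0 in sham. All injured libraries lay above all sham libraries, and library 2 was again the lowest of each injured group. The mean was 6.16-fold that of sham in TJ0113 and 11.8-fold in vehicle, and 0.523 of the vehicle mean in TJ0113. The exact two-sided permutation p was 0.1 in TJ0113 and in vehicle against sham, the smallest that 3 against 3 libraries allow. Between TJ0113 and vehicle it was 0.3 by the same exact test, and those groups overlapped.

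The annotated Slc7a11 model of 13922 exon bases holds a stretch of 373 bases that is 95.4% to 96.2% identical to Tuba1a, Tuba1b and Tuba1c, abundant tubulin genes. Their summed level was 125, 90.2 and 135 FPKM in TJ0113, 154, 89.9 and 194 FPKM in vehicle and 51.9, 47.9 and 51.9 FPKM in sham. The tubulin sum thus had the same order of libraries as Slc7a11 within each injured group. The first principal component, with 75.5% of the variance, had that order too, so it is not particular to these genes. Its values were 25.4, 4.5 and 51.1 in TJ0113 libraries 1 to 3 and 30.8, -8.0 and 70.6 in vehicle. The share of Slc7a11 fragments that fell on the tubulin-like stretch was not tested, since the table gives no positions.

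ATF4 and NRF2 are known activators of Slc7a11, and the promoter is shown because it carries the motif of the first of them. The window spans chr3:50443614-50443863 on GRCm38.p6 (minus strand, RefSeq sequence), and capitals mark the ATF4 core TGATGNAA on either strand.

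Slc7a11 promoter: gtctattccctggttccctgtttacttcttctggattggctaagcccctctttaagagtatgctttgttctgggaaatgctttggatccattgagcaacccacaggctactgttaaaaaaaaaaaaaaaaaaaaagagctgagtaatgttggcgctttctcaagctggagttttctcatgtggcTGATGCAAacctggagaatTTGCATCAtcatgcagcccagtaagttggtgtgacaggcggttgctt

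The window held 2 such cores, at -66 to -59 on the gene's strand and at -47 to -40 on the other, with no overlap between them. Of all 32851 windows, 3.45% held this motif. Of the 7 defence genes with a promoter window, Slc7a11 was the 1 with an ATF4 core. Atf4 itself averaged 56.6 ± 7.80 FPKM in TJ0113, 71.1 ± 18.6 in vehicle and 39.1 ± 2.35 in sham (SD, n = 3 each), and it was called higher in vehicle than in sham (limma adjusted p 0.0190). Of the 11 regulators called higher in vehicle (list below), 7 lost that call with median-ratio scaling. Whether Atf4 was among them is not reported here.

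Slc3a2 (ENSMUSG00000010095, chromosome 19) encodes CD98 heavy chain, which brings SLC7A11 and several other amino acid transporters to the cell surface. It had 65.7, 43.8 and 57.6 FPKM in TJ0113, 46.4, 53.6 and 66.6 FPKM in vehicle and 44.4, 48.4 and 36.5 FPKM in sham. The highest injured libraries lay above sham, but the groups overlapped. The mean was 1.29-fold that of sham in both injured groups. Relative to the median gene this came to 0.09 in TJ0113 and 0.06 in vehicle against sham, and to 0.03 between TJ0113 and vehicle (-0.41 to 0.47), none called by limma. The sign against sham changed under some settings, with sizes of at most 0.06.

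Slc3a2 was far more abundant than Slc7a11 per length. The ratio was 745, 797 and 380 in TJ0113, 235, 930 and 216 in vehicle and 3030, 2900 and 2210 in sham. The ratio in every injured library was below that of every sham library, which follows from the Slc7a11 values. The other light chains that pair with CD98 were nearer to it in level. Slc7a5, a transporter of large neutral amino acids, averaged 2.55 ± 0.445 FPKM in TJ0113, 2.64 ± 1.23 in vehicle and 0.544 ± 0.126 in sham (SD, n = 3 each). It was called higher in both injured groups, as was Slc7a6, an exchanger of basic amino acids, making 2 of 4 tested light chains called higher and 0 lower in each. Of all tested genes, 28.9% were called higher in TJ0113 and 31.3% in vehicle. Slc7a7 and Slc7a8, the light chains of the basolateral tubule membrane, were not called. Median-ratio scaling kept 2 higher in each comparison and added 1 lower between vehicle and sham.

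Glutathione synthesis was not called changed in either injured group, and its genes lay below the median gene's change in both. Gclc (ENSMUSG00000032350, chromosome 9), the catalytic subunit of glutamate-cysteine ligase, had 74.4, 83.2 and 79.3 FPKM in TJ0113, 103, 147 and 52.6 FPKM in vehicle and 91.9, 84.7 and 145 FPKM in sham. TJ0113 libraries were close together and all below sham, the nearest pair 83.2 and 84.7 FPKM, while vehicle spanned the whole range. The log2 difference was -0.66 between TJ0113 and sham (-1.43 to 0.11), -0.46 between vehicle and sham (-1.24 to 0.31) and -0.20 between TJ0113 and vehicle (-0.97 to 0.57). Limma adjusted p was 0.372, 0.706 and 0.941.

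Gclm (ENSMUSG00000028124, chromosome 3), the subunit that makes the ligase efficient, had 46.0, 46.4 and 34.5 FPKM in TJ0113, 46.0, 51.9 and 24.4 FPKM in vehicle and 49.1, 46.6 and 52.3 FPKM in sham. In each injured group library 3 was the lowest. TJ0113 lay just below sham without overlap, and vehicle overlapped sham. The log2 difference was -0.49 between TJ0113 and sham (-1.07 to 0.08), -0.63 between vehicle and sham (-1.21 to -0.06) and 0.14 between TJ0113 and vehicle (-0.44 to 0.72), with limma adjusted p of 0.491, 0.306 and 0.974. The p of 0.306 belongs to the difference as deposited, -0.34 (-0.91 to 0.24). Relative to the median gene, the difference between vehicle and sham was -0.24 without vehicle library 3 (limma adjusted p 0.961) and -0.92 without vehicle library 2 (limma adjusted p 0.0969). Between TJ0113 and sham it was -0.31 without TJ0113 library 3 (limma adjusted p 0.833). The Gclm model overlaps Gm6061, a copy of the cyclophilin gene Ppia, over 244 bases. Ppia averaged 192 FPKM over the 9 libraries, and how reads of its copies were assigned was not tested.

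The Gclm window is shown because Gclm was the 1 of the 7 genes with a window that held the antioxidant response element core, the motif of NRF2 with its small Maf partners. It spans chr3:122245307-122245556 on GRCm38.p6 (plus strand, RefSeq sequence), and capitals mark the core TGACNNNGC, here on the other strand.

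Gclm promoter: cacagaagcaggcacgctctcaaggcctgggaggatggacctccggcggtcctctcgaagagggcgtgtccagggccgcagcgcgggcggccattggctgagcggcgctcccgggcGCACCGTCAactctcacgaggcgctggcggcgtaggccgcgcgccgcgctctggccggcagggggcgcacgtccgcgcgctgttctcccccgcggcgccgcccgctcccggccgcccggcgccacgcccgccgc

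The core lies at -134 to -126 from the start site and overlaps none of the 3 GC boxes of this window. Of all windows, 10.2% held this core. Aifm2 and Gss windows held none of the 3 motifs. The Slc3a2 window and 3 of the 4 windows of Gpx4 held GC boxes without the others. The remaining Gpx4 window held none of the 3 motifs, and no window was at hand for Dhodh and Gclc. The Gpx4 windows that begin at 80053315 and 80053409 overlap and hold the same 2 GC boxes.

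Gss (ENSMUSG00000027610, chromosome 2), glutathione synthetase, had 51.6, 61.0 and 38.4 FPKM in TJ0113, 45.0, 58.3 and 31.4 FPKM in vehicle and 61.5, 54.7 and 62.3 FPKM in sham. Library 2 was the highest and library 3 the lowest in both injured groups, and both overlapped sham. The log2 difference was -0.52 between TJ0113 and sham (-1.05 to 0.01), -0.74 between vehicle and sham (-1.27 to -0.21) and 0.21 between TJ0113 and vehicle (-0.32 to 0.74). Limma adjusted p was 0.394, 0.156 and 0.932. The p of 0.156 belongs to the difference as deposited, -0.44 (-0.97 to 0.09). Without vehicle library 2, Gss was called lower in vehicle than in sham (-1.03 relative to the median gene, limma adjusted p 0.0353). Without vehicle library 3 the difference relative to the median gene shrank to -0.43 (limma adjusted p 0.473). Without TJ0113 library 3 the difference between TJ0113 and sham was -0.30 (limma adjusted p 0.825). Gss shares 6.68% of its exon bases with Acss2 on the opposite strand, which averaged 17.9 ± 7.69 FPKM in TJ0113, 14.6 ± 5.67 in vehicle and 31.4 ± 2.21 in sham (SD, n = 3 each).

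Proximal tubule cells make and use much glutathione, and within each injured group their markers had the same order of libraries as Gclm and Gss. That order is the reverse of the one on the first principal component, so it is not particular to these genes. The summed FPKM of the 24 markers was 25000, 35000 and 12300 in TJ0113, 20800, 36200 and 4880 in vehicle and 54000, 50700 and 57800 in sham. Limma called 6 of the 24 lower in TJ0113 and 10 of the 24 lower in vehicle, and none higher, against sham. Vehicle library 3, with the lowest marker sum, had the lowest Gclc, Gclm and Gss of all libraries, and library 2 of each injured group had the highest marker sum and the highest Gclc, Gclm, Gss and Gpx4 of its group. Gclc departed from the marker order elsewhere. It was higher in TJ0113 library 3 (79.3 FPKM) than in TJ0113 library 1 (74.4 FPKM). In vehicle libraries 1 and 2 (103 and 147 FPKM) it exceeded sham libraries 1 and 2 (91.9 and 84.7 FPKM). The part of proximal tubule content in these values was not tested.

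**Figure D2:**
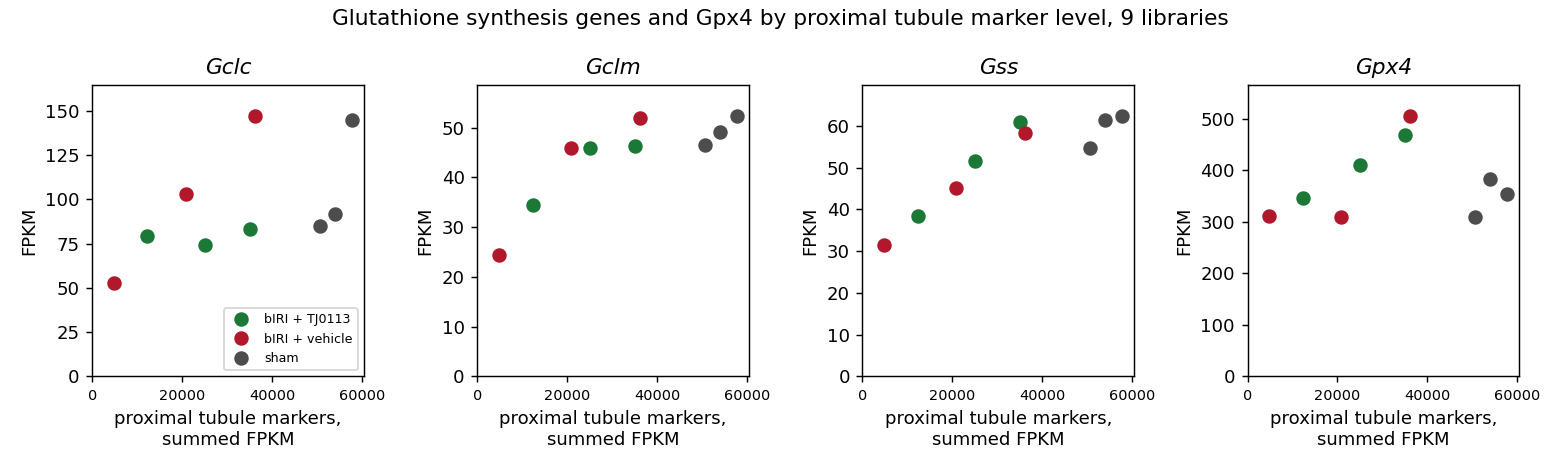
FPKM of Gclc, Gclm, Gss and Gpx4 in each library against the summed FPKM of 24 proximal tubule markers; points are libraries, coloured by group. Gss and Gclm in injured libraries are lowest where the marker sum is lowest, and Gpx4 in sham libraries lies below that of TJ0113 library 2 and vehicle library 2 although the marker sum is higher.

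Ratios within a library set the genes of the route against each other, free of any scaling between libraries; they were chosen after the values were known and carry no test. Gpx4 was 7.97, 7.69 and 9.01 times Gss in TJ0113, 6.89, 8.66 and 9.93 times in vehicle and 6.23, 5.65 and 5.66 times in sham. All injured libraries lay above all sham libraries in this ratio. The ratio of Gclc to Gclm, the subunits of the ligase, was 1.62, 1.79 and 2.30 in TJ0113, 2.24, 2.83 and 2.15 in vehicle and 1.87, 1.82 and 2.77 in sham, and the groups overlapped.

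**Figure D3:**
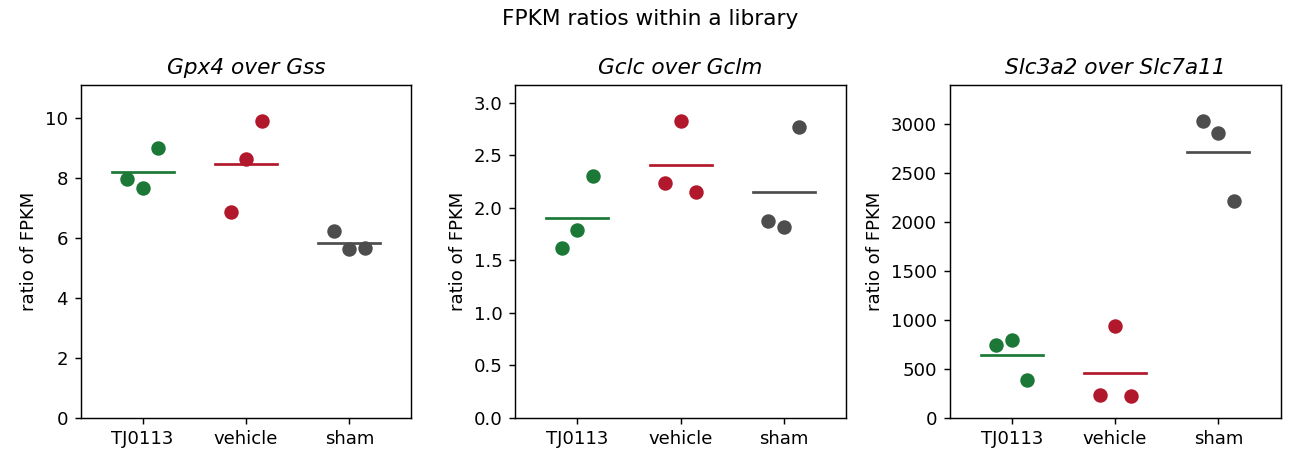
FPKM ratios within each library for Gpx4 over Gss, Gclc over Gclm and Slc3a2 over Slc7a11, by group from left to right TJ0113, vehicle and sham; points are libraries and lines are means. Gpx4 over Gss is 6.89 or more in injured libraries and 6.23 or less in sham, and Slc3a2 over Slc7a11 is at most 930 in injured libraries and at least 2210 in sham.

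The order of levels per length was nearly the same in all groups. Gpx4 came first and Gclc second, then Slc3a2, Gss and Gclm in TJ0113 and in vehicle and Gss, Gclm and Slc3a2 in sham, followed by Aifm2, Dhodh, Gch1 and Slc7a11. In both injured groups Slc3a2 overlapped Gss and Gss overlapped Gclm, in vehicle Gclc also overlapped Slc3a2, and in sham Gclm overlapped Slc3a2. All other neighbours in these orders were apart. Group means from Slc7a11 to Gpx4 ran from 0.0983 to 409 FPKM in TJ0113, from 0.188 to 375 FPKM in vehicle and from 0.0160 to 348 FPKM in sham.

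The 8 tested genes did not form a single pattern over the 9 libraries. Slc7a11, under the filter, was not part of this measure. Likeness was measured as the root mean square difference of log2(FPKM + 1) after centring each gene, so that smaller means more alike. Among the 8 tested, Gclm and Gss were the closest pair at 0.12, and Gch1 and Gclc the most unlike at 0.71. Gpx4 differed from each of the other 7 by more (0.254 to 0.488) than from its own mean (0.247). Over all tested genes, the nearest to Gpx4 were Uqcr10, Tmem97 and Coa6 (0.0687 to 0.0822), and the nearest to Gss were Ppa2, Ndufa4 and Atp5f1 (0.0641 to 0.0711). Those nearest to Gch1 were Ap2b1, Sec24b and Slc22a15 (0.0385 to 0.0496), and those nearest to Dhodh were Coq10a, Rfc2 and Tceal1 (0.0504 to 0.0552). For a gene as low as Gch1, likeness on this scale is not likeness in fold change. Ap2b1 averaged 20.6 FPKM in vehicle and 11.8 in sham, and Sec24b 13.4 and 7.8. Gch1 averaged 1.06 FPKM in vehicle and 0.201 in sham, and Slc22a15, also low, 0.901 and 0.166. Nucb1, Rabl6 and Gm4951 were nearest to Aifm2 (0.0704 to 0.0799), and Fam83g, Adap2 and Tkt to Slc3a2 (0.0614 to 0.0903). Gpt, Tmem189 and Gm44202 were nearest to Gclm (0.105 to 0.112), and Gm17040, Nat8f5 and Gpt to Gclc (0.168 to 0.202). Gclc thus had the loosest neighbours, and on this scale it also had the widest spread of its own (0.434). The spread of low genes such as Gch1 (0.37) is understated on this scale, so the ranking does not hold for fold changes.

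**Figure D4:**
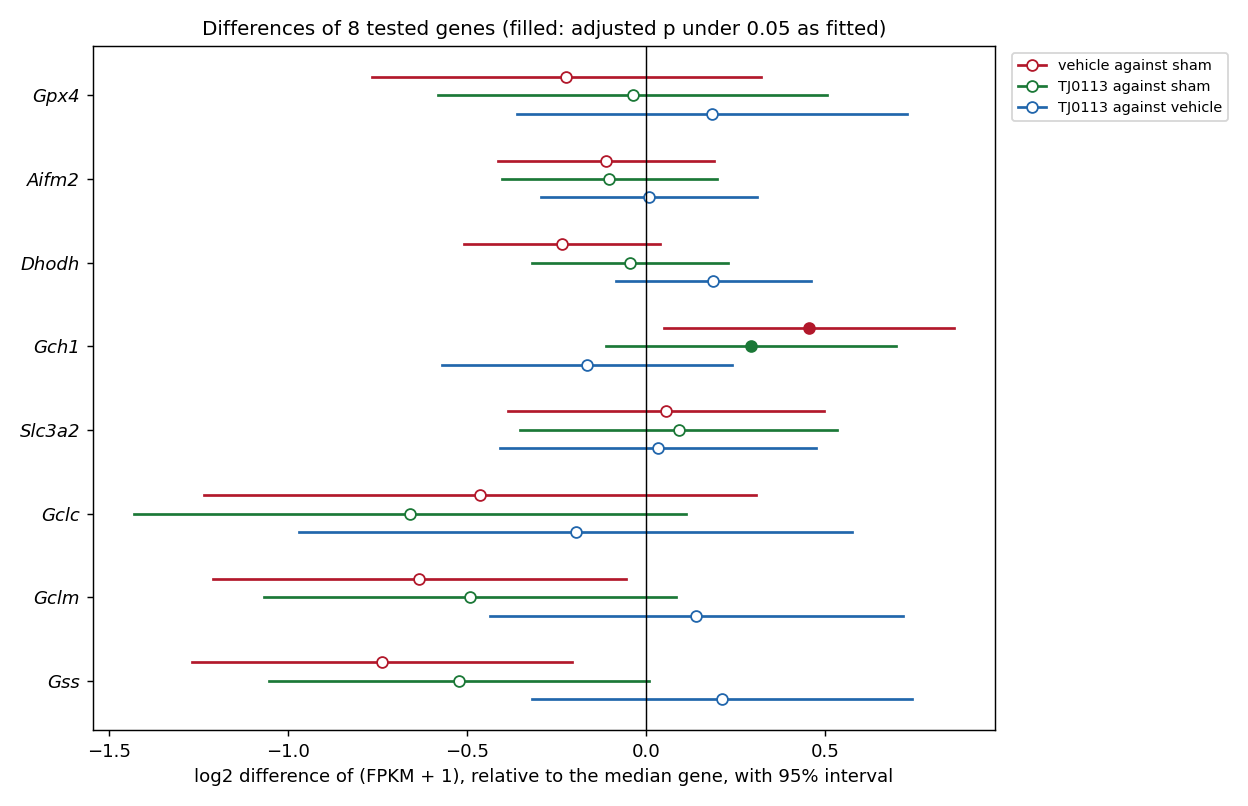
Log2 differences of (FPKM + 1), relative to the median gene, of the 8 tested genes in 3 comparisons, with 95% intervals; filled points have a limma adjusted p under 0.05 on the values as deposited. Gch1 against sham is filled in vehicle (0.46) and in TJ0113 (0.29), no other gene is, and all TJ0113 against vehicle intervals cross 0.

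The 95% intervals of the difference between TJ0113 and vehicle included 0 for all 8 tested genes. The narrowest belonged to Dhodh (-0.09 to 0.46) and Aifm2 (-0.29 to 0.31), and the widest to Gclc (-0.97 to 0.57). This ranking depends on the amount added before taking logs. With 0.1 in place of 1, the SE was largest for Gch1 (0.383, with 0.345 for Gclc) and smallest for Aifm2 (0.151, with 0.161 for Dhodh). Point estimates were above 0 for Gpx4, Aifm2, Dhodh, Slc3a2, Gclm and Gss and below 0 for Gch1 and Gclc, with limma adjusted p of 0.849 to 0.999. The median over the 8 was 0.0863, against 0 for all tested genes by construction. Against sham the medians over the 8 were -0.074 in TJ0113 and -0.229 in vehicle. Groups of the 9 genes that did not overlap numbered 0 between TJ0113 and vehicle, where 7.35% of all tested genes did not overlap. They numbered 5 between TJ0113 and sham (Gch1, Slc7a11, Dhodh, Gclc and Gclm; 65.1% of all tested genes) and 2 between vehicle and sham (Gch1 and Slc7a11; 56.8%).

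Genes around these 9 were read as 11 lists of known members of the same routes. No member of any list was called between TJ0113 and vehicle by limma, so their counts below are those against sham. Over all tested genes, 28.9% were called higher and 5.92% lower in TJ0113, and 31.3% higher and 5.42% lower in vehicle. Each list is to be read beside these shares, and a count near them is no trait of the list. Scaling libraries by median ratios moved the split of called genes over the whole table. It gave 2669 higher and 3166 lower in TJ0113 and 2379 higher and 2472 lower in vehicle against sham, where values as deposited gave 4469 and 915 in TJ0113 and 4839 and 837 in vehicle. Counts under that scaling are therefore given beside each list. No listed gene called in both ways of scaling changed its sign, but a shift shared by all genes makes such a change unlikely beforehand. The scaling acted by loss of higher calls and gain of lower calls, 7 and 1 among the regulators in vehicle.

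**Figure D5:**
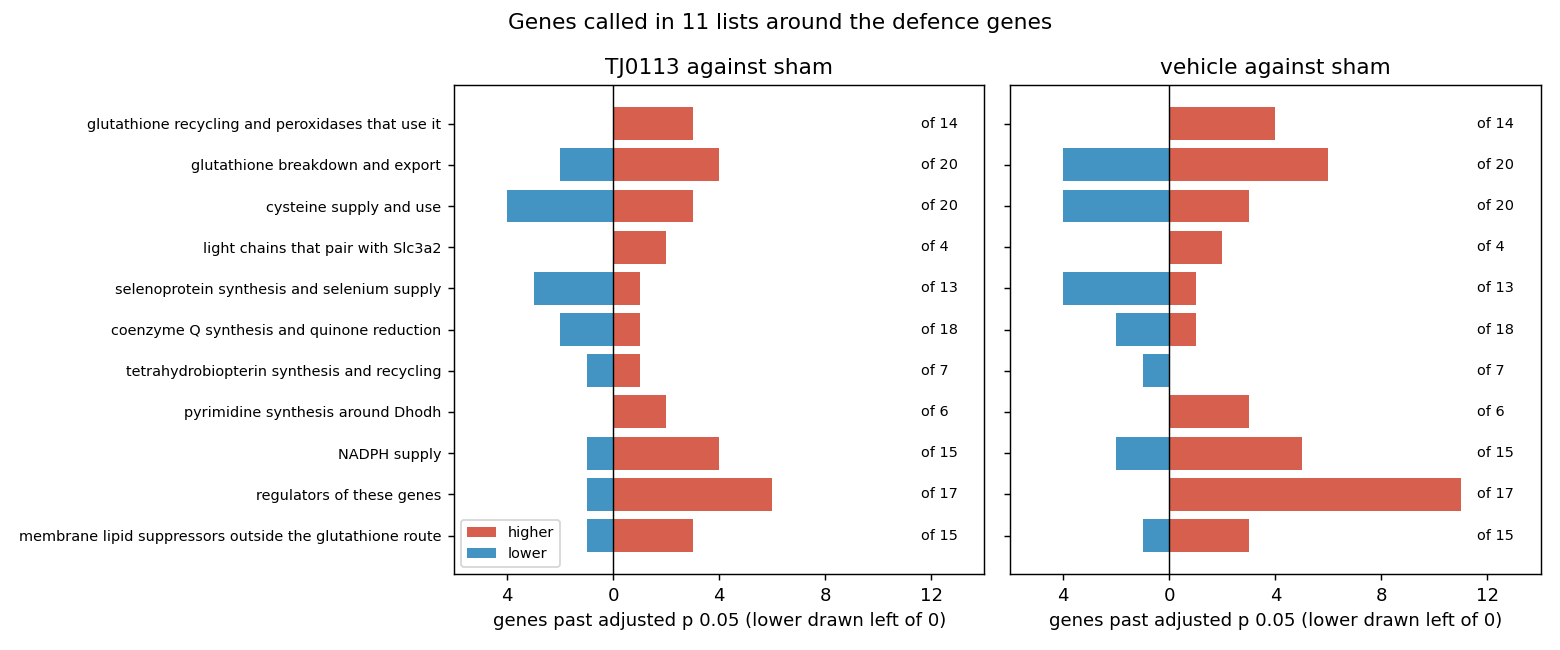
Number of genes called against sham by limma in each of 11 lists, higher to the right of 0 and lower to the left, for TJ0113 (left panel) and vehicle (right panel), with the number tested at the right edge. The regulators list has 6 higher in TJ0113 and 11 in vehicle of 17 tested; lists differ in size, and with median-ratio scaling it has 4 higher in each. Of all tested genes, 28.9% were called higher and 5.92% lower in TJ0113, and 31.3% higher and 5.42% lower in vehicle.

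Enzymes that recycle or use glutathione had 3 of 14 higher and 0 lower in TJ0113, and 4 of 14 higher and 0 lower in vehicle (with median-ratio scaling 2 and 2, and 2 and 1). Mgst1, a microsomal transferase and peroxidase, averaged 78.0 ± 13.4 FPKM in TJ0113, 83.4 ± 11.7 in vehicle and 33.9 ± 3.69 in sham (SD, n = 3 each). Gpx7, a peroxidase of the endoplasmic reticulum, averaged 6.24 ± 2.33 FPKM in TJ0113, 6.55 ± 3.97 in vehicle and 0.692 ± 0.049 in sham. Both rose in both injured groups, as did Gpx8, the other endoplasmic reticulum peroxidase. Gsr, which regenerates glutathione, averaged 33.9 ± 7.09 FPKM in TJ0113, 38.2 ± 5.46 in vehicle and 44.1 ± 1.79 in sham and was not called.

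Breakdown and export of glutathione had 4 of 20 higher and 2 lower in TJ0113 and 6 of 20 higher and 4 lower in vehicle (with median-ratio scaling 4 and 3, and 4 and 6). Abcc4, an exporter of organic anions, averaged 12.3 ± 4.02 FPKM in TJ0113, 15.8 ± 3.07 in vehicle and 5.19 ± 1.28 in sham (SD, n = 3 each) and rose in both. Ggct, which cleaves gamma-glutamyl amino acids, fell in both, with 3.74 ± 1.43 FPKM in TJ0113, 2.93 ± 1.53 in vehicle and 8.47 ± 0.763 in sham. Dpep1, the brush border dipeptidase, averaged 38.8 ± 14.1 FPKM in TJ0113, 24.5 ± 8.95 in vehicle and 58.6 ± 6.95 in sham. Its limma adjusted p against sham was 0.114 in TJ0113 and 0.0156 in vehicle, and it was 0.796 between TJ0113 and vehicle. Ggt1, the brush border gamma-glutamyltransferase, averaged 262 ± 89.8 FPKM in TJ0113, 231 ± 156 in vehicle and 443 ± 38.2 in sham and was not called. Chac1, a glutathione-degrading enzyme induced by ATF4, averaged 0.731 ± 0.275 FPKM in TJ0113, 0.769 ± 0.194 in vehicle and 0.552 ± 0.216 in sham and was not called.

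Cysteine supply and use had 3 of 20 higher and 4 lower in each injured group (with median-ratio scaling 1 and 7 in TJ0113, and 2 and 8 in vehicle), with median log2 differences of -0.986 in TJ0113 and -0.936 in vehicle, 17 of 20 genes being below the median gene in each. Ahcy, which frees homocysteine for transsulfuration, averaged 48.5 ± 25.8 FPKM in TJ0113, 47.9 ± 26.5 in vehicle and 126 ± 1.43 in sham (SD, n = 3 each) and fell in both. Cbs, which commits homocysteine to cysteine, averaged 15.3 ± 8.31 FPKM in TJ0113, 14.0 ± 11.2 in vehicle and 35.7 ± 2.88 in sham, with limma adjusted p of 0.0962 in TJ0113 and 0.0495 in vehicle. Cth, the next enzyme, was not called, at 42.8 ± 13.8 FPKM in TJ0113, 39.4 ± 19.5 in vehicle and 69.6 ± 2.89 in sham. Slc3a1 and Slc7a9 form the cystine transporter of the brush border. Slc3a1 fell in TJ0113, at 108 ± 44.5 FPKM, and stood at 124 ± 40.8 in vehicle and 224 ± 22.9 in sham (limma adjusted p 0.0368 in TJ0113 and 0.0724 in vehicle), while Slc7a9 was not called. The neutral amino acid transporters Slc1a5 and Slc38a2 rose in both injured groups. Proximal tubule markers also lay below the median gene in both injured groups, with median log2 differences of -1.1 in TJ0113 and -1.36 in vehicle. Their median was thus lower in vehicle, whereas that of this list was lower in TJ0113. The part of tubule content in this list was not tested. Ggt1 is a member of both marker and breakdown lists.

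Selenium supply and selenoprotein synthesis, on which GPX4 protein depends, had 1 of 13 higher and 3 lower in TJ0113 and 1 of 13 higher and 4 lower in vehicle (with median-ratio scaling 0 and 6, and 0 and 7). Lrp2, the endocytic receptor that takes up selenoprotein P in the tubule and also a proximal tubule marker, averaged 58.6 ± 21.6 FPKM in TJ0113, 55.1 ± 20 in vehicle and 163 ± 32.7 in sham (SD, n = 3 each) and fell in both. Secisbp2l, a protein that binds the insertion element of selenoprotein mRNAs, fell in both. Sephs2, which makes the selenium donor, averaged 84.0 ± 17.2 FPKM in TJ0113, 64.8 ± 19.4 in vehicle and 107 ± 3.93 in sham, with limma adjusted p of 0.230 in TJ0113 and 0.0335 in vehicle. Trnau1ap, a partner of the selenocysteine transfer RNA, rose in both.

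Coenzyme Q synthesis and quinone reduction, beside Aifm2, had 1 of 18 higher and 2 lower in each injured group (with median-ratio scaling 1 and 6 in TJ0113, and 0 and 8 in vehicle). Coq3, a methyltransferase of the pathway, averaged 5.76 ± 0.189 FPKM in TJ0113, 6.08 ± 1.56 in vehicle and 9.07 ± 0.927 in sham (SD, n = 3 each) and fell in both, whereas Coq8b, a regulatory kinase-like protein, rose in both. Coq8a, its relative, averaged 19.3 ± 5.23 FPKM in TJ0113, 14.5 ± 4.55 in vehicle and 27.8 ± 3.72 in sham and was called lower in vehicle. Nqo1, a quinone reductase and NRF2 target, averaged 46.2 ± 8.76 FPKM in TJ0113, 52.8 ± 24.2 in vehicle and 37.6 ± 1.99 in sham and was not called.

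Tetrahydrobiopterin synthesis and recycling, downstream of Gch1, had few calls. Of 7 tested, 1 was higher and 1 lower in TJ0113, and 0 were higher and 1 lower in vehicle (with median-ratio scaling 0 and 1, and 0 and 2). Pcbd2, a dehydratase of the recycling arm, rose in TJ0113 at 22.3 ± 3.84 FPKM and stood at 14.9 ± 4.90 in vehicle and 9.72 ± 1.84 in sham (SD, n = 3 each), with limma adjusted p of 0.0129 in TJ0113 and 0.796 between TJ0113 and vehicle. Gchfr, the feedback inhibitor of GCH1, averaged 29.0 ± 12.4 FPKM in TJ0113, 20.2 ± 14.6 in vehicle and 28.0 ± 6.26 in sham and was not called. Between TJ0113 and vehicle all 7 lay above the median gene, with a median of 0.238, and none was called by limma.

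Pyrimidine synthesis around Dhodh had 2 of 6 higher and 0 lower in TJ0113 and 3 of 6 higher and 0 lower in vehicle (with median-ratio scaling 1 and 1, and 2 and 2). Cad, the enzyme that precedes Dhodh, averaged 2.91 ± 0.451 FPKM in TJ0113, 3.10 ± 1.03 in vehicle and 1.43 ± 0.227 in sham (SD, n = 3 each) and rose in both. Ctps, which makes cytidine triphosphate, averaged 15.4 ± 3.11 FPKM in TJ0113, 22.8 ± 6.38 in vehicle and 9.33 ± 1.69 in sham and was called higher in vehicle.

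NADPH, which feeds glutathione reductase and AIFM2, is supplied by enzymes of which 4 of 15 were higher and 1 lower in TJ0113 and 5 of 15 higher and 2 lower in vehicle (with median-ratio scaling 1 and 4, and 3 and 2). Pgd of the pentose phosphate pathway averaged 34.7 ± 6.04 FPKM in TJ0113, 37.5 ± 3.24 in vehicle and 19.3 ± 0.375 in sham (SD, n = 3 each) and rose in both, as did Mthfd2 of mitochondrial folate metabolism. Nadk2, the mitochondrial NAD kinase, fell in both, with 8.92 ± 1.86 FPKM in TJ0113, 9.14 ± 2.76 in vehicle and 18.3 ± 1.33 in sham.

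Regulators of these genes had 6 of 17 higher and 1 lower in TJ0113 and 11 of 17 higher and 0 lower in vehicle (with median-ratio scaling 4 and 2, and 4 and 1). Nfe2l2, which encodes NRF2, averaged 32.0 ± 2.46 FPKM in TJ0113, 43.7 ± 11 in vehicle and 23.2 ± 1.10 in sham (SD, n = 3 each), with limma adjusted p of 0.0814 in TJ0113 and 0.0131 in vehicle against sham and 0.796 between TJ0113 and vehicle. Atf3, a stress-induced relative of ATF4, averaged 6.37 ± 2.85 FPKM in TJ0113, 30.0 ± 24.4 in vehicle and 0.566 ± 0.0888 in sham and rose in both, as did Maff, a partner of NRF2, and Ddit3, a target of ATF4. Trp53, which in other settings represses Slc7a11, averaged 16.3 ± 3.87 FPKM in TJ0113, 14.1 ± 3.85 in vehicle and 5.93 ± 0.390 in sham and rose in both.

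Suppressors of membrane lipid oxidation outside the glutathione route had 3 of 15 higher and 1 lower in each injured group (with median-ratio scaling 2 and 4 in TJ0113, and 2 and 2 in vehicle). Hmox1, which degrades heme, averaged 34.8 ± 6.75 FPKM in TJ0113, 38.8 ± 5.94 in vehicle and 18.5 ± 0.613 in sham (SD, n = 3 each). Hmox1 rose in both, as did Slc40a1, the iron exporter, and Mboat1, a phospholipid-remodelling acyltransferase. Nfs1, which takes sulfur from cysteine for iron-sulfur clusters, fell in both, with 18.4 ± 4.46 FPKM in TJ0113, 20.3 ± 6.08 in vehicle and 31.7 ± 1.11 in sham.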

How the data were processed

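The authors deposited 1 table of FPKM for 34669 Ensembl gene identifiers in 9 libraries, made by them before deposit. The libraries were paired-end and came from renal cortex RNA extracted with TRIzol, per the labels' protocols, and HISAT2 is named without a version in the submitters' processing notes. Counting tool, genome build, annotation and strand setting are not stated in the sources used here. The unit was read from the values: column sums differ (330815.1 to 405810.2), and of values under 20 fragments 98.7% to 99.0% lay within 0.02 of a whole or a middle step once multiplied by exon length. Depth was taken from these steps. GENCODE M21 named 33893 identifiers.

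FPKM were not rescaled. Genes averaging 0.5 FPKM or more were tested on log2(FPKM + 1) with limma 3.58.1 (R 4.3.3, trend) in 1 fit of 9 libraries, with Benjamini-Hochberg adjustment. Slc7a11, under that filter, had an exact permutation test. Alternatives were another pseudocount (0.1), 2 other filters, 3 scalings, a fit of only the 2 groups compared, a replicate block and leaving out each library. The fit was tested on simulated data. Overlaps and near copies (at least 200 bases, at least 95% identity) came from GENCODE M21, and promoter windows from RefSeq on GRCm38.p6. Genes around the members were named by smallest p, up to 4 a list between vehicle and sham and up to 2 between TJ0113 and vehicle, plus some set by name, and not all are printed; 1 called gene of the tetrahydrobiopterin list is not reported here. The 9 members, the lists and the tests were chosen with earlier results of these data known. Tables and figures were made in Python 3.11.15 (scipy 1.17.1, numpy 2.4.6, matplotlib 3.10.9, pandas 2.3.3).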

Additional observations from a re-analysis of the deposited data

How the results depend on the processing

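The 8 alternatives to the processing and the 9 fits that leave out 1 library were run for the counts of called genes over the whole table, the counts of called defence genes and the 8 tested defence genes, except that Gch1 has no value at a mean of at least 2 FPKM. The 11 lists were counted under the 3 scalings and without vehicle library 2, which were added after the data were seen. Slc7a11 was also fitted without a filter, with limma adjusted p of 0.339 in TJ0113 and 0.0811 in vehicle against sham; other alternatives were not run for it, nor any for Gpx4 with its copy added. Vehicle against sham had 5676 called genes, and 2933 without a filter on low values; leaving out 1 library gave 862 (without sham 2) to 8789 (without vehicle 2). TJ0113 against sham had 5384, and 3205 without the filter; leaving out 1 library gave 1272 (without sham 2) to 7313 (without vehicle 2). Median-ratio scaling and quantile normalization split these calls about evenly between higher and lower: with quantile normalization 2391 higher and 2854 lower in TJ0113, and 2041 higher and 2320 lower in vehicle. Of the defence genes, 1 was called in vehicle against sham; 2 were with quantile normalization (with Dhodh), 0 at a mean of at least 2 FPKM, which removes Gch1, and 0 to 2 on leaving out 1 library. In TJ0113 against sham 1 was called; 0 were without a filter, at a mean of at least 2 FPKM, with equal FPKM sums and with quantile normalization, and 0 to 1 on leaving out 1 library. Between TJ0113 and vehicle none was called in any of these settings. The cause of these changes was not tested beyond the removal of Gch1.

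Of 411 single-gene values, 367 kept sign and side of the threshold, 11 lost a call, 2 gained one and 31 changed sign. Many of the 367 kept their sign by construction. Leaving out a library of the group not compared, fitting only the 2 groups compared and the replicate block can change the p-value but not the estimate. None of the 31 was called, the largest had a size of 0.265 and the smallest adjusted p by limma was 0.15. Without a filter, which moves the median gene, values were 0.190 (Gpx4), 0.126 (Aifm2) and 0.183 (Dhodh) in TJ0113 against sham, 0.0352, 0.146 and 0.0237 for the same genes in vehicle against sham, and -0.0234 for Aifm2 between TJ0113 and vehicle. Quantile normalization gave Gpx4 0.171 in TJ0113 and 0.137 in vehicle against sham. Slc3a2 had -0.0223 in TJ0113 and -0.0557 in vehicle against sham with median-ratio scaling, and -0.0312 in vehicle with a pseudocount of 0.1. Aifm2 between TJ0113 and vehicle had -0.00425 with equal FPKM sums.

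Ranges over fits that leave out 1 library, for genes that changed sign in them, were as follows. Between TJ0113 and vehicle they were -0.0119 to 0.505 for Gpx4, -0.123 to 0.120 for Aifm2, -0.104 to 0.165 for Slc3a2, -0.681 to 0.220 for Gclc, -0.265 to 0.433 for Gclm and -0.0979 to 0.508 for Gss, with the extremes of Gpx4, Gclc, Gclm and Gss at vehicle libraries 2 and 3. Against sham they were -0.176 to 0.121 for Gpx4, -0.238 to 0.0109 for Aifm2 and -0.118 to 0.00974 for Dhodh in TJ0113, -0.0480 to 0.218 for Slc3a2 in TJ0113, and -0.0500 to 0.185 for Slc3a2 and -0.875 to 0.0127 for Gclc in vehicle.

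Replicate numbers were not treated as pairs: after removal of group means, the correlation of same-numbered libraries was -0.06, 0.50 and 0.56 for TJ0113 with vehicle and at most 0.03 between either injured group and sham. With the replicate number as a block, 6062 genes were called in TJ0113 and 6394 in vehicle against sham and 0 between TJ0113 and vehicle, with 1, 1 and 0 defence genes among them.

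Depth limits Slc7a11, with 7.5 to 8.0 fragments in each sham library, and the exact test cannot go below 0.1 with 3 libraries against 3. Groups of 3 leave wide intervals for every gene, and vehicle libraries 2 and 3 lay at opposite ends of their group on the first principal component (-8.0 and 70.6).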
